A study of Homo sapiens with 12 samples.

Results

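The response of TC71 cells to mithramycin was followed here across the 19775 genes of a whole-transcriptome array. TC71 is an established human cell line of Ewing sarcoma, a tumour of bone and soft tissue. The comparison used 6 of the 12 samples of the series, chosen by the cell line named in their labels: 3 arrays of TC71 given 100 nM mithramycin and 3 arrays of TC71 given the control solvent, all collected after 6 h. The other 6 samples are the same pair of treatments in TC32, a further Ewing sarcoma line, and show below where TC71 differed. They also entered the shared estimate of spread behind every TC71 p-value, and the choice of the probe set for each gene. Each array held total RNA from its own biological replicate, and whether replicates came from separate cultures is not stated, so p-values measure the spread between these samples only. Every replicate came from 1 line at 1 dose and 1 time, and 3 arrays a group limit the precision of every value.

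In Ewing sarcoma a chromosomal translocation joins EWSR1 to an ETS factor gene, usually FLI1, and the fusion protein, EWS-FLI1, acts as an aberrant transcription factor that switches on one set of genes and holds others silent. Mithramycin, also called plicamycin, is an antibiotic that sits in the minor groove of GC-rich DNA. It is known for keeping Sp1 and related zinc finger factors from their GC-rich sites, and it has been studied as an inhibitor of EWS-FLI1. An array measures how much RNA is present, so fewer cells making a transcript and less RNA per cell cannot be told apart, and neither can lower synthesis and faster decay.

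Signals are log2 values normalized by the authors, and changes are mithramycin minus control on the log2 scale, each with the model's standard error and n = 3 arrays in either group. The labelled tumour type was checked on 9 Ewing sarcoma markers, whose mean signal was 8.70 to 8.74 on the control arrays and 8.03 to 8.04 on the mithramycin arrays. The surface protein gene CD99 read 10.95 to 11.08 on control arrays and 10.99 to 11.08 with mithramycin, overlapping ranges. Markers of neural, blood, epithelial and endothelial cells had mean signals between 3.66 and 4.23 over all TC71 arrays, near or below the array medians of 4.38 to 4.44. The 10 fibroblast markers averaged 5.62 to 5.68 on control arrays and 5.84 to 5.92 with mithramycin, and 4 of them were higher and 0 lower (1 lower at an unadjusted p under 0.05 in limma's test), against 1 higher of the 7 left without the _x_at and _s_at probe sets, which can match more than 1 transcript. Of those, COL3A1 rose by 0.34 ± 0.06 and FAP by 0.61 ± 0.11, while 2 of the 10 markers lay below the array median on every TC71 array. The part of such cells in the changes was not tested. Calls were 2 higher of 8 neural markers and 2 higher of 10 endothelial markers (0 of either with housekeeping centring), and 0 of 7 blood and 0 of 10 epithelial markers (0 at an unadjusted p under 0.05 for both). Several array-wide measures moved with the treatment. The beta-actin 3' minus 5' signal, which grows as transcripts lose their 5' ends, was 2.0, 1.08 and 1.28 on the control arrays and 0.80, 0.86 and 0.99 with mithramycin, so the groups did not overlap and control replicate 1 stood highest (exact permutation p = 0.1, two-sided, the smallest that 3 against 3 allows). The same measure of GAPDH was 0.10 ± 0.02 and 0.12 ± 0.02 (SD, n = 3; exact permutation p = 0.4). Treated and control arrays were also fully apart (exact permutation p = 0.1 each) in the array median, 4.42 ± 0.02 against 4.38 ± 0.01 (SD, n = 3), in the interquartile range of each array, 3.27 ± 0.05 against 3.40 ± 0.02, and in the mean of the housekeeping genes, 11.02 ± 0.01 against 10.95 ± 0.03. The hybridization controls averaged 9.48 ± 0.06 and 9.59 ± 0.16 (exact permutation p = 0.4). The part of these measures in the changes below was not tested beyond the centrings and the actin covariate.

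Mithramycin changed a large part of the transcriptome within 6 h. Of the 19775 genes, 3190 (16.1%) were lower and 3828 (19.4%) were higher, together 35.5%, at a limma adjusted p under 0.05. Large changes ran downward: 492 genes (2.49%) fell 2-fold or more, whereas 90 (0.455%) rose as much. Treated arrays all lay below the control arrays in 4069 genes (20.6%) and all above them in 6088 (30.8%). The median change of all genes was 0.07, and the median among the 492 was -1.33. The share of lower genes depended on signal. It was 2.41% of the 5727 genes with a mean under 4, 32.7% of the 4366 genes between 6 and 8, and 12.7% of the 1066 genes at 10 or over. Higher genes made up 8.03%, 24.6% and 23.6% of the same classes. Without control replicate 1, 2958 genes were lower and 3204 higher, of which 2886 and 3013 were called in that direction with all arrays too. The larger of the 2 counts of each list below moved by no more than 1.5 times without that array. The balance between rises and falls depended on the scaling. Higher genes were 54.5% of the calls as deposited, 36.9% with the arrays centred on 12 housekeeping genes, 70.4% with centring on 9 hybridization controls and 46.7% with the actin measure as a covariate. The second centring moved the median of all genes from 0.07 to 0.17.

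**Figure D1:**
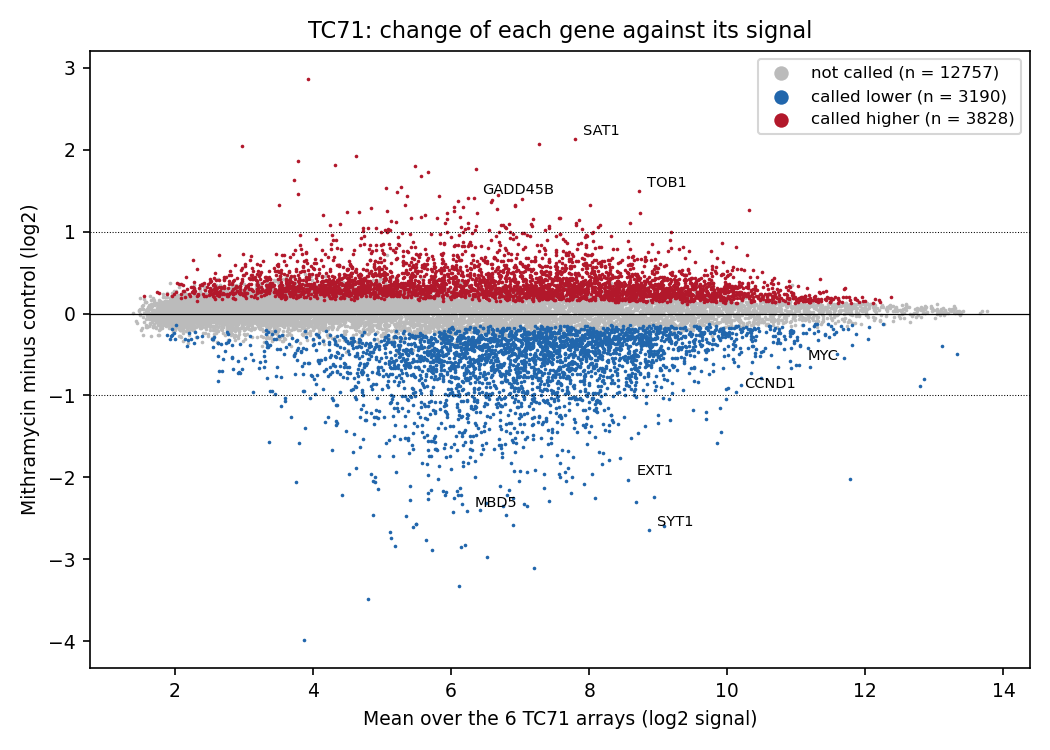
Change with mithramycin in TC71 (log2, vertical axis) against mean signal over the 6 TC71 arrays (log2, horizontal axis), 1 point per gene, with the 3190 lower genes in blue, the 3828 higher genes in red and dotted lines at 2-fold. Changes beyond 2-fold lie mostly below zero, 492 against 90.

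The deepest falls were read among genes with mean signals of at least 5 in each group and at least 2 probe sets, all called in the same direction. Treated and control arrays also had to lie fully apart, so separate groups were a condition of the choice. These conditions were met by 475 falling genes. The 15 deepest had varied roles. SYT1, the calcium sensor of synaptic vesicle release, read 10.09, 10.23 and 10.24 on control arrays and 7.62, 7.47 and 7.54 with mithramycin. Every treated array lay over 2 log2 units below every control array, and SYT1 fell by 2.64 ± 0.08 (adjusted p = 5.44e-10). MBD5, a methyl-CpG-binding domain protein, read 7.41, 7.45 and 7.44 and then 4.91, 5.0 and 5.15, and fell by 2.41 ± 0.09. MAP3K5, the stress-activated kinase ASK1, read 7.60, 7.67 and 7.60 and then 5.25, 4.94 and 5.47, and fell by 2.40 ± 0.12. ASAP1, which inactivates the small GTPase ARF, fell by 2.19 ± 0.06. EXT1, a polymerase of heparan sulphate chains, fell by 2.03 ± 0.07. PSD3, which activates the small GTPase ARF6, fell by 2.0 ± 0.12. NFIC, a nuclear factor I protein, fell by 1.96 ± 0.06 and BANP, a nuclear matrix-attachment protein, by 1.91 ± 0.07. The axon guidance receptor ROBO2 fell by 1.83 ± 0.16 and the homeobox gene CUX2 fell by 1.83 ± 0.13. TET1, which oxidizes methylated cytosine, fell by 1.72 ± 0.07. The adhesion genes NLGN4X and CNTN4, the reelin receptor LRP8 and the transcriptional cofactor SSBP3 completed the 15, with changes from -1.70 to -1.64. Adjusted p-values ran from 2.42e-10 to 2.47e-06, and without control replicate 1 the changes lay between -2.69 and -1.63. With the actin measure as a covariate they lay between -2.76 and -1.62.

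The highest rises by the same conditions, which 444 genes met, had varied roles too. SAT1, the acetyltransferase that starts polyamine breakdown, read 6.82, 6.73 and 6.65 on control arrays and 8.86, 8.84 and 8.88 with mithramycin. TOB1, an antiproliferative adaptor that recruits the deadenylation machinery to mRNA, read 7.89, 8.05 and 7.96 and then 9.43, 9.48 and 9.48. It rose by 1.49 ± 0.08 (adjusted p = 6.22e-08). GADD45B, a stress sensor upstream of p38 kinase, read 5.64, 5.69 and 5.55 and then 7.06, 6.95 and 7.11, a rise of 1.41 ± 0.09. VAMP1, a synaptic vesicle SNARE, rose by 1.31 ± 0.05, RSRP1, an arginine- and serine-rich protein, by 1.27 ± 0.06 and CCN1, a matricellular protein, by 1.15 ± 0.09. NR4A2, an orphan nuclear receptor, rose by 1.10 ± 0.10 and DNAJB4, a chaperone of the HSP40 family, by 1.09 ± 0.10. The others were CRYGS, PCDH18, CMTM1, IGIP and 3 genes named as antisense RNAs, ATXN1-AS1, RBM26-AS1 and ZSCAN16-AS1, all between 1.04 and 1.31. Adjusted p-values of the 15 ran from 1.69e-09 to 3.69e-04, and without control replicate 1 the rises lay between 1.04 and 2.17.

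**Figure D2:**
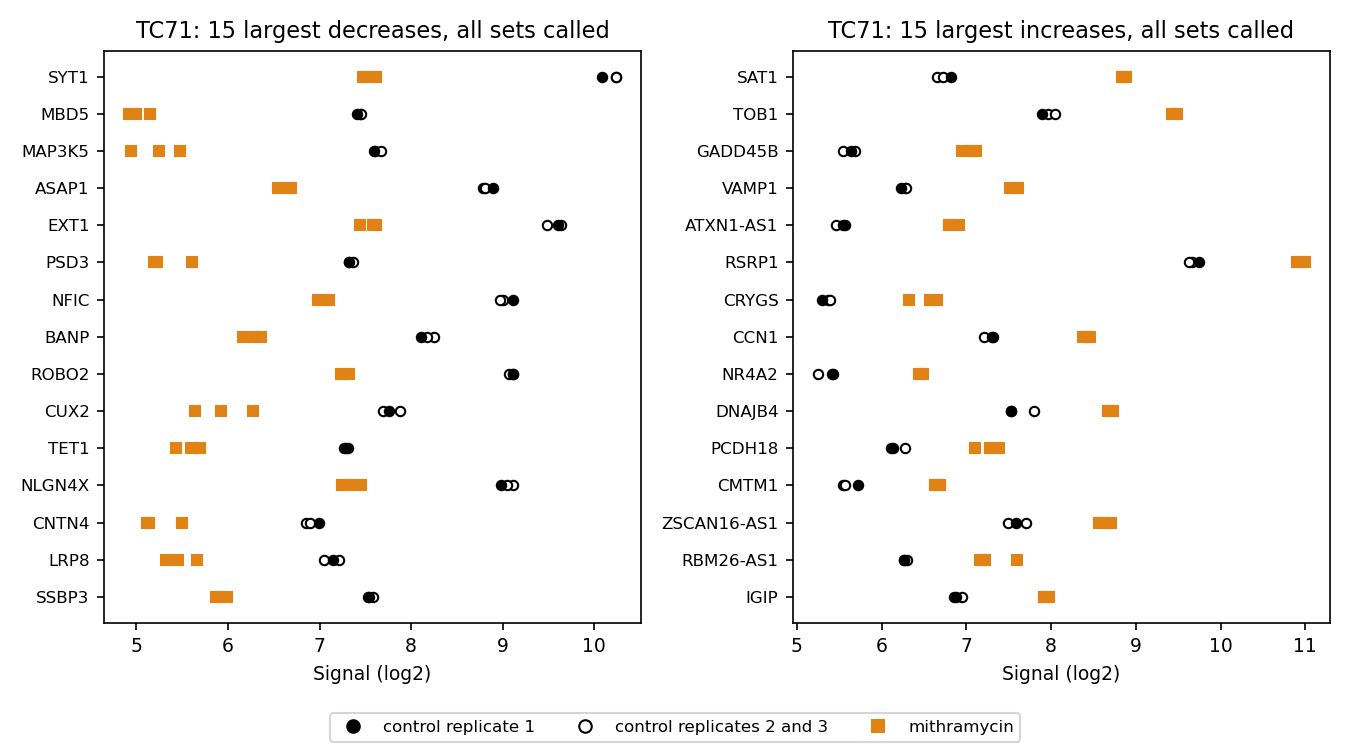
Signal (log2) of the 15 largest decreases (left) and the 15 largest increases (right) among genes with all probe sets called in the same direction, 1 symbol per array, with control replicate 1 filled, control replicates 2 and 3 open and mithramycin arrays as orange squares. Separate groups of treated and control arrays were a condition of the choice of these genes, and control replicate 1 lies with the other controls.

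Because mithramycin is known for GC-rich sites, the promoters of the 4 deepest falls and 2 highest rises whose promoters could be shown from the RefSeq promoter table (GRCh38.p14) are given here. Each is 250 bases before to 50 after the annotated start, read 5' to 3' along the gene, and capitals mark the GC box core of Sp1 sites, GGGCGG or its reverse complement CCGCCC. They are SYT1 at chr12:78864524-78864823 (plus strand), MBD5 at chr2:148020761-148021060 (plus), MAP3K5 at chr6:136793042-136793341 (minus), NFIC at chr19:3359380-3359679 (plus), SAT1 at chrX:23782923-23783222 (plus) and TOB1 at chr17:50867929-50868228 (minus).
SYT1: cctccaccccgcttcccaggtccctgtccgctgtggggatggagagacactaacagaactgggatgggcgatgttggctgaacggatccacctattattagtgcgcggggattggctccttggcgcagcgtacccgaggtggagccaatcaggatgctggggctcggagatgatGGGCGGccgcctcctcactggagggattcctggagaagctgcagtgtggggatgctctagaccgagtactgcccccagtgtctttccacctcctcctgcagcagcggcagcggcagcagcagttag
MBD5: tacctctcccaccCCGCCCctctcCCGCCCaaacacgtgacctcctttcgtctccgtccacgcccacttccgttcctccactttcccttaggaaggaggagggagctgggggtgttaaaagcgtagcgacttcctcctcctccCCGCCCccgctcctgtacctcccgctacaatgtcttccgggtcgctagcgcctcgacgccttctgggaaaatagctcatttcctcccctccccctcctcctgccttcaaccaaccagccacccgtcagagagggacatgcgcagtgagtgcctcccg
MAP3K5: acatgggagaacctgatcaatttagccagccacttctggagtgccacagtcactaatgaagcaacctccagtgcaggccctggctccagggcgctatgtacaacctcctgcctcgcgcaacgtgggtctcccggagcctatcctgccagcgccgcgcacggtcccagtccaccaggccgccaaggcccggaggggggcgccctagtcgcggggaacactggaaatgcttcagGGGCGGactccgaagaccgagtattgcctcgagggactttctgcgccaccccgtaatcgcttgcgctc
NFIC: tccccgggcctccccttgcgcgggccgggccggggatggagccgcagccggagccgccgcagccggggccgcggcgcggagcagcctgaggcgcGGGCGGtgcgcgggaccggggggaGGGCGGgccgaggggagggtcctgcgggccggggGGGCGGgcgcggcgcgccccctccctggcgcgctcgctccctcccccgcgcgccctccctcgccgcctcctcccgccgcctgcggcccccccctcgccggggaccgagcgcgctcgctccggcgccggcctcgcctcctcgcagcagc
SAT1: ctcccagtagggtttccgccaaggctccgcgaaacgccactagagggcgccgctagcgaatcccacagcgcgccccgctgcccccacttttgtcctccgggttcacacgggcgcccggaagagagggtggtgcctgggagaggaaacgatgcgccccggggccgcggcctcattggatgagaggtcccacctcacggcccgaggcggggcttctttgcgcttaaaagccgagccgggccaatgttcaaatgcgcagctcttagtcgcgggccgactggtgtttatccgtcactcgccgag
TOB1: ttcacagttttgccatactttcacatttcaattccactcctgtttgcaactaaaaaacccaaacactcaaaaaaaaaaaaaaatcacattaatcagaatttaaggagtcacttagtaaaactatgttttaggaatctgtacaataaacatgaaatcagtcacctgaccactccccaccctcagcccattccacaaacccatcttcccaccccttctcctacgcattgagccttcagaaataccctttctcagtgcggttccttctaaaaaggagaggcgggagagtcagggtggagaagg
The window held 1 core in SYT1, 3 in MBD5, 1 in MAP3K5 and 3 in NFIC, and 0 in SAT1 and TOB1, whose GC contents were 66.0% and 41.3%. These 6 do not stand for the rest: of the 15 deepest falls 12 had a promoter in the table and 8 of those held a core, with 0 in NLGN4X, ROBO2, SSBP3 and TET1, and of the 15 highest rises 12 had one and 4 held a core, RSRP1 and VAMP1 with 3 each and DNAJB4 and ZSCAN16-AS1 with 1 each. Among tested genes with a promoter in the table (15384, 77.8% of those tested), the core occurred in 58.9%, against 44.6% of all 27305 promoters in the table. It occurred in 71.2% of the genes called lower, 65.0% of those called higher and 53.6% of those not called. Bright genes carry the core more often: among genes with a mean signal of at least 6 it occurred in 73.1% of lower, 72.6% of higher and 71.8% of uncalled genes, and in 71.5% of those at least 2-fold lower. A match is only a match of letters in this window.

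The fusion protein's own program moved in part. Of 34 measured genes that EWS-FLI1 is known to activate, 18 were lower and 5 higher (16.1% and 19.4% of all genes), with a median change of -0.19 against 0.07 for all genes. With hybridization centring 10 were lower and 4 higher, with housekeeping centring 19 and 1, and with the actin covariate 14 and 1. Without the _x_at and _s_at sets 13 of 26 were lower and 0 higher. BCL11B, a zinc finger repressor, read 10.35, 10.41 and 10.38 on control arrays and 7.82, 7.70 and 7.84 with mithramycin. The groups were far apart and BCL11B fell by 2.59 ± 0.06 (adjusted p = 8.84e-11), although the weakest of its 3 probe sets stood at -0.18. PAX7, a paired-box factor of muscle stem cells, read 8.82, 8.70 and 8.75 and then 6.76, 6.66 and 6.85, and fell by 2.0 ± 0.08 with its other set at -0.27. CCND1, the G1 cyclin D1, read 10.58, 10.60 and 10.63 and then 9.70, 9.63 and 9.61, and fell by 0.95 ± 0.06 with no overlap. The surface antigen STEAP1 fell by 0.31 ± 0.04, a call lost with centring on hybridization controls (-0.20). FLI1 changed by -0.27 ± 0.10 (adjusted p = 0.0667) and EWSR1 by -0.07 (adjusted p = 0.403), and neither was called. The part of the fusion transcript in either signal was not tested. NKX2-2, a homeobox target of the fusion, read 7.14, 7.08 and 7.10 and then 7.39, 7.24 and 7.20. Its change of 0.17 ± 0.06 (adjusted p = 0.0395) was called with all arrays but not in 5 of the 6 fits that left out 1 TC71 array, and adjusted p was 0.0543 without control replicate 1. EZH2, the Polycomb methyltransferase, was at -0.17 ± 0.06 (adjusted p = 0.0471), also lost in 5 of those 6 fits, with adjusted p = 0.0623 without control replicate 1.

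Genes that the fusion is known to hold down, taken with mesenchymal genes, numbered 26, of which 4 were lower and 8 higher with a median of 0.18 (3 and 5 with the actin covariate). CCN2, a matricellular protein of connective tissue, read 4.74, 4.92 and 4.76 on control arrays and 6.65, 6.55 and 6.40 with mithramycin, well apart. NT5E, the ectonucleotidase CD73, rose by 0.73 ± 0.08 from signals of 3.71 to 3.88, below the array medians, 1 of its 4 sets stood at -0.34, and the call was lost with their mean (0.17). On the same list CDH11, a cadherin of mesenchymal cells, fell by 1.20 ± 0.05, with 4 probe sets between -2.65 and -1.01. Of the 18 Sp and KLF transcription factor genes, which read GC-rich sites, 5 were lower and 3 higher, counts near the shares of all genes (16.1% and 19.4%). They were 3 and 3 with hybridization centring, 4 and 4 with the mean of probe sets, and 4 and 1 with the actin covariate and, of 15 genes, without the _x_at and _s_at sets. KLF12 fell by 1.55 ± 0.09, with the weakest of its 8 sets at 0.01. KLF5 rose by 0.75 ± 0.09, and SP1 fell by 0.28 ± 0.06, a call lost with the mean of its probe sets (-0.16) and with hybridization centring (-0.18).

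Insulin-like growth factor signalling is an autocrine survival loop of Ewing sarcoma in which ligands bind the receptor IGF1R, binding proteins meter the ligands and IRS adaptors pass the signal to PI3K and AKT. The arrays measured the mRNAs of its members: of 17 IGF genes, 11 were lower and 2 higher (16.1% and 19.4% of all genes), with a median of -0.65. The receptor IGF1R read 8.42, 8.42 and 8.41 on control arrays and 6.29, 6.14 and 6.42 with mithramycin. All treated arrays lay below all controls, and fell by 2.13 ± 0.08 (adjusted p = 3.86e-09), though its 5 sets ran from -2.14 to 0.21. PAPPA, a protease that frees IGF from its binding proteins, read 7.04, 7.25 and 7.18 and then 4.13, 4.13 and 4.56, the last values near or below the array medians, and its 11 sets ran from -2.89 to 0.34. The insulin receptor INSR fell by 1.38 ± 0.13 and the mRNA-binding protein genes IGF2BP2 and IGF2BP3 by 1.26 ± 0.06 and 0.94 ± 0.06. The IGF2BP3 call was lost without the _x_at and _s_at probe sets (-0.29). Both adaptors also fell, IRS1 by 0.78 ± 0.08 and IRS2 by 0.70 ± 0.05, while the binding protein gene IGFBP5 rose by 0.50 ± 0.07. Further down, 11 of 17 PI3K, AKT, mTOR and FOXO genes were lower and 1 higher, with a median of -0.40. They included the catalytic subunit PIK3CB, which fell by 1.10 ± 0.12, the regulatory subunit PIK3R1, which fell by 0.73 ± 0.08, and the transcription factor FOXO1, which fell by 0.92 ± 0.07. The AKT-activating kinase PDPK1 fell by 1.18 ± 0.05 at its brightest set, a call that did not hold without the _x_at and _s_at sets (-0.11). PHLPP1, a phosphatase that removes AKT phosphorylation, read 4.63, 4.41 and 4.73 and then 2.84, 2.98 and 3.22, near and then below the medians of the arrays, which makes the size rough.

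Enzymes that write, erase and read histone marks set how open chromatin is, and many of their genes were lower. Of 37 histone methylation genes 27 were lower and 3 higher (16.1% and 19.4% of all genes), with a median of -0.49. EHMT1, which methylates histone H3 lysine 9, read 7.61, 7.62 and 7.45 on control arrays and 4.79, 4.70 and 4.64 with mithramycin. The H3K4 methyltransferase KMT2C read 8.71, 8.66 and 8.70 and then 6.79, 6.56 and 6.58, and fell by 2.05 ± 0.08. In both genes the groups were separate, with the weakest sets at -0.49 and 0.08. KDM4B, a demethylase, fell by 2.22 ± 0.06, JARID2, a Polycomb cofactor, by 1.93 ± 0.08 and KDM6A, which removes Polycomb's mark, by 1.66 ± 0.12. These 3 calls ended without the _x_at and _s_at sets, at -0.01, -0.14 and -0.22. The H3K36 methyltransferase SETD2 fell by 1.26 ± 0.08, the H3K79 methyltransferase DOT1L by 1.27 ± 0.18 and the Polycomb subunit SUZ12 by 0.74 ± 0.05, while the demethylase KDM3A rose by 0.31 ± 0.05. Of 27 acetylation genes and their readers 15 were lower and 4 higher, with a median of -0.30. HDAC4, a class IIa deacetylase, fell by 2.61 ± 0.15 to signals of 3.93 to 4.29, below the array medians. The coactivators CREBBP and EP300, paired acetyltransferases, fell by 1.95 ± 0.11 and 0.81 ± 0.06, and the acetyltransferase KAT6B fell by 1.44 ± 0.07. BRD1, a scaffold of acetyltransferases, fell by 1.13 ± 0.07 and the corepressor SIN3A fell by 1.02 ± 0.08. BRD2, a bromodomain reader, rose by 0.77 ± 0.06. The weakest sets stood at 0.17 for CREBBP, -0.09 for BRD1 and 0.08 for SIN3A.

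**Figure D3:**
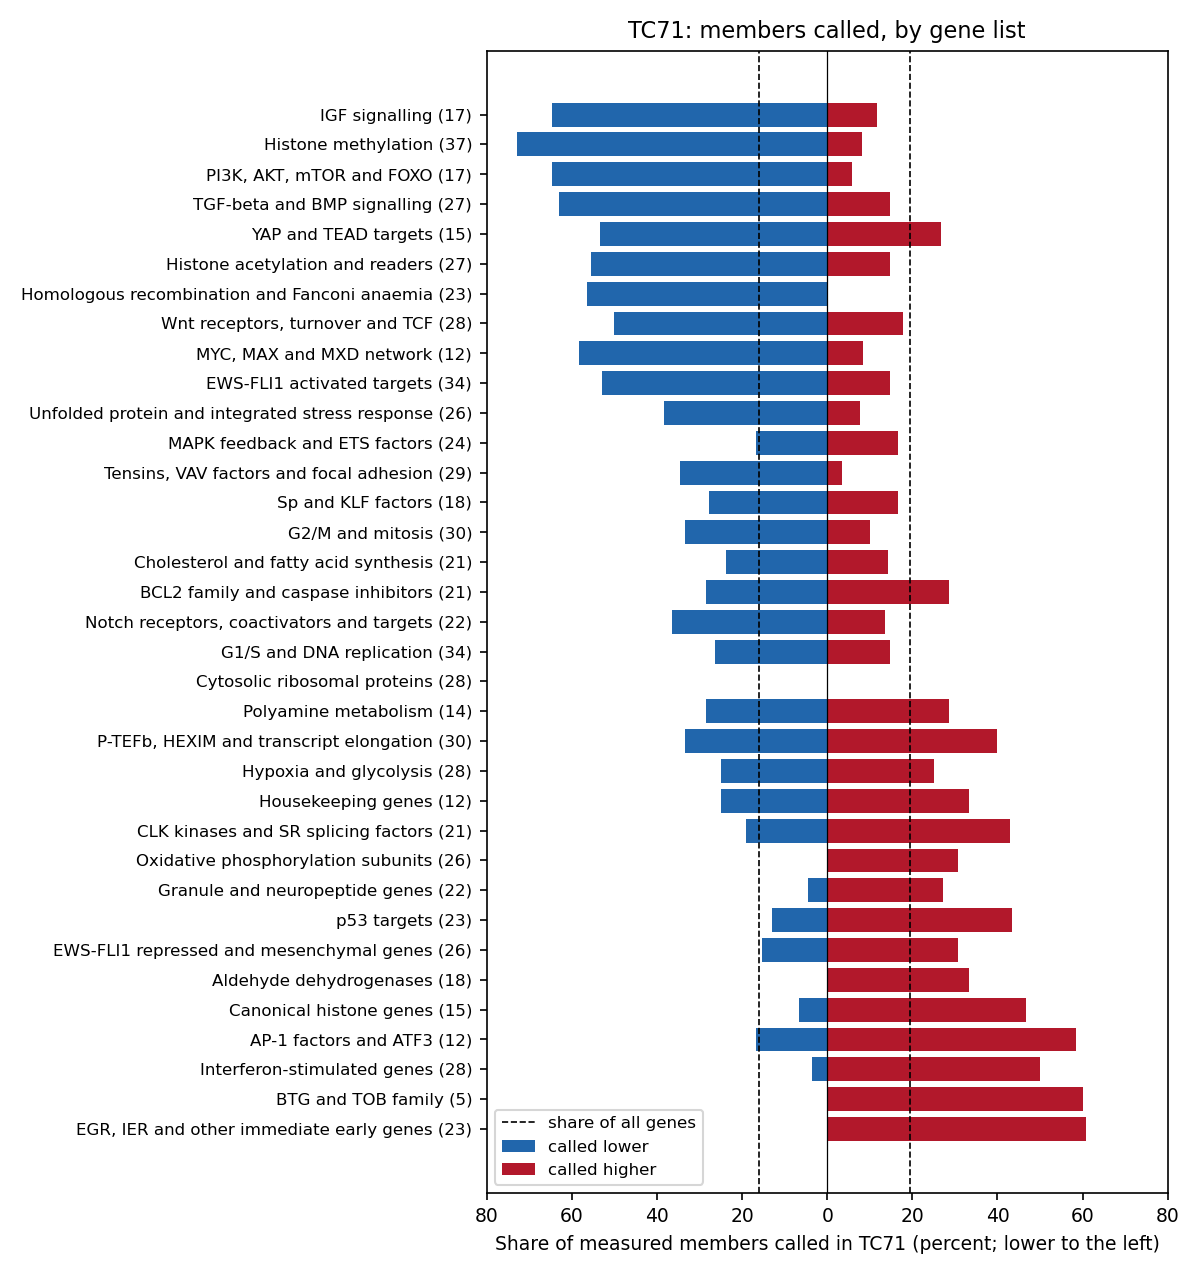
Share of the measured members of each gene list called lower (blue, to the left) or higher (red, to the right) in TC71, in percent, with the number measured in brackets and dashed lines at the shares of all genes, 16.1% and 19.4%. Histone methylation has the longest bar to the left, 27 of 37, and the immediate early genes the longest to the right, 14 of 23.

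Developmental signalling genes were lower in several lists, beside 16.1% lower and 19.4% higher among all genes. In the Wnt pathway, where LRP6 is a coreceptor, ZNRF3 a ubiquitin ligase that removes receptors, GSK3B a kinase that marks beta-catenin for destruction and TCF7L2 its DNA-bound partner, 14 of 28 were lower and 5 higher, with a median of -0.23. The counts were 9 lower and 5 higher with the mean of probe sets and 11 lower and 1 higher with the actin covariate, and relative to all genes the median ran from -0.34 to -0.05 over the alternatives. TCF7L2 read 7.92, 7.93 and 7.91 on control arrays and 5.72, 5.52 and 5.49 with mithramycin, and fell by 2.34 ± 0.07. ZNRF3 read 8.01, 7.98 and 8.03 and then 5.20, 4.92 and 4.99, with no overlap in either gene. LRP6 fell by 1.05 ± 0.07 and GSK3B by 1.20 ± 0.08, with weakest sets at -0.50 and 0.09. Of 27 TGF-beta and BMP genes, 17 were lower and 4 higher, with a median of -0.37. SMAD3, a receptor-activated effector, read 6.62, 6.45 and 6.58 and then 5.42, 5.34 and 5.20, well apart, and fell by 1.23 ± 0.09. The receptor BMPR2 fell by 0.69 ± 0.06. Brakes on the pathway went both ways. The ligase SMURF1 fell by 1.54 ± 0.07, the repressor SKI fell by 1.52 ± 0.07, PMEPA1 fell by 1.46 ± 0.12 and the inhibitory SMAD7 fell by 0.73 ± 0.09, whereas the pseudoreceptor BAMBI rose by 0.47 ± 0.06 and the corepressor TGIF1 by 0.40 ± 0.06. SMAD6, a further inhibitory SMAD, fell by 2.35 ± 0.12 at its brightest set but stood at 0.14 once _x_at and _s_at sets were left out. In the Notch pathway 8 of 22 were lower and 3 higher, with a median of 0.02 (4 and 3 with hybridization centring, 4 and 2 of 14 without the _x_at and _s_at sets). The receptor NOTCH1 fell by 1.29 ± 0.15 (other set 0.15) and the corepressor SPEN by 0.69 ± 0.05, whereas the target genes NRARP and HEY1 rose by 0.97 ± 0.07 and 0.64 ± 0.05.

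A list of targets and partners of YAP, the coactivator that the Hippo kinase LATS2 restrains and that acts through DNA-bound TEAD proteins, had 8 of 15 genes lower and 4 higher, with a median of -0.30 (5 and 4 with hybridization centring). TEAD1 read 9.07, 8.96 and 8.97 on control arrays and 7.69, 7.67 and 7.66 with mithramycin, and fell by 1.32 ± 0.05. LATS2 fell by 1.31 ± 0.06, with the weakest of 4 sets at 0.18. The target CRIM1, a transmembrane regulator of BMP, fell by 0.74 ± 0.10. The 4 higher genes were CCN1, CCN2, F3 and AJUBA. CCN1 read 7.30, 7.21 and 7.32 and then 8.43, 8.38 and 8.46, and CCN2 rose by 1.73 ± 0.07. Among 29 genes of focal adhesions and their exchange factors, 10 were lower and 1 higher, with a median of -0.10. Beside both lists stand 16.1% lower and 19.4% higher among all genes. Between 6 and 8 in mean signal, where both lists averaged in TC71, the shares were 32.7% lower and 24.6% higher. The lower count of the adhesion list was near the share at that signal. TNS1, which links integrins to actin, read 8.72, 8.75 and 8.76 and then 5.52, 5.64 and 5.77. Focal adhesion kinase, PTK2, fell by 1.27 ± 0.06, and the Rac exchange factor ARHGEF7 fell by 1.92 ± 0.07 (weakest of 9 sets 0.19).

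Immediate early genes, whose short-lived mRNAs answer growth factors and stress within minutes, were higher. Of 23, 14 were higher and 0 lower (1 lower at an unadjusted p under 0.05), with a median of 0.46, and 12 were higher and 2 lower with housekeeping centring. IER3, which modulates ERK signalling and cell survival, read 6.97, 6.99 and 6.97 on control arrays and 8.17, 8.12 and 8.14 with mithramycin, a rise of 1.16 ± 0.05 (adjusted p = 1.14e-08). IER5 read 8.06, 8.04 and 8.0 and then 9.16, 9.12 and 9.14, a rise of 1.11 ± 0.06. No treated array reached the control range in either gene. GADD45A, the relative of GADD45B, rose by 0.70 ± 0.05 and IER5L by 0.98 ± 0.08. In the AP-1 family, which pairs FOS and JUN proteins, 7 of 12 genes were higher and 2 lower, with a median of 0.23. Among all genes 19.4% were higher and 16.1% lower. FOS read 4.71, 4.45 and 4.66 and then 5.47, 5.39 and 5.28, a rise of 0.77 ± 0.08. JUNB rose by 0.57 ± 0.10 and ATF3, a stress-induced partner, read 5.10, 5.08 and 5.16 and then 6.58, 6.54 and 6.52, with the weakest of its 3 sets at 0.11. JUND fell by 0.39 ± 0.06, a call lost with the mean of probe sets (-0.09) and with hybridization centring (-0.29). Of the 5 antiproliferative BTG and TOB genes 3 were higher and 0 lower (0 at an unadjusted p under 0.05), against 1 higher of the 4 left without the _x_at and _s_at sets. TOB2 rose by 0.36 ± 0.08, and BTG1 by 1.23 ± 0.06 at its brightest set, but BTG1 stood at -0.06 once _x_at and _s_at sets were left out.

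**Figure D4:**
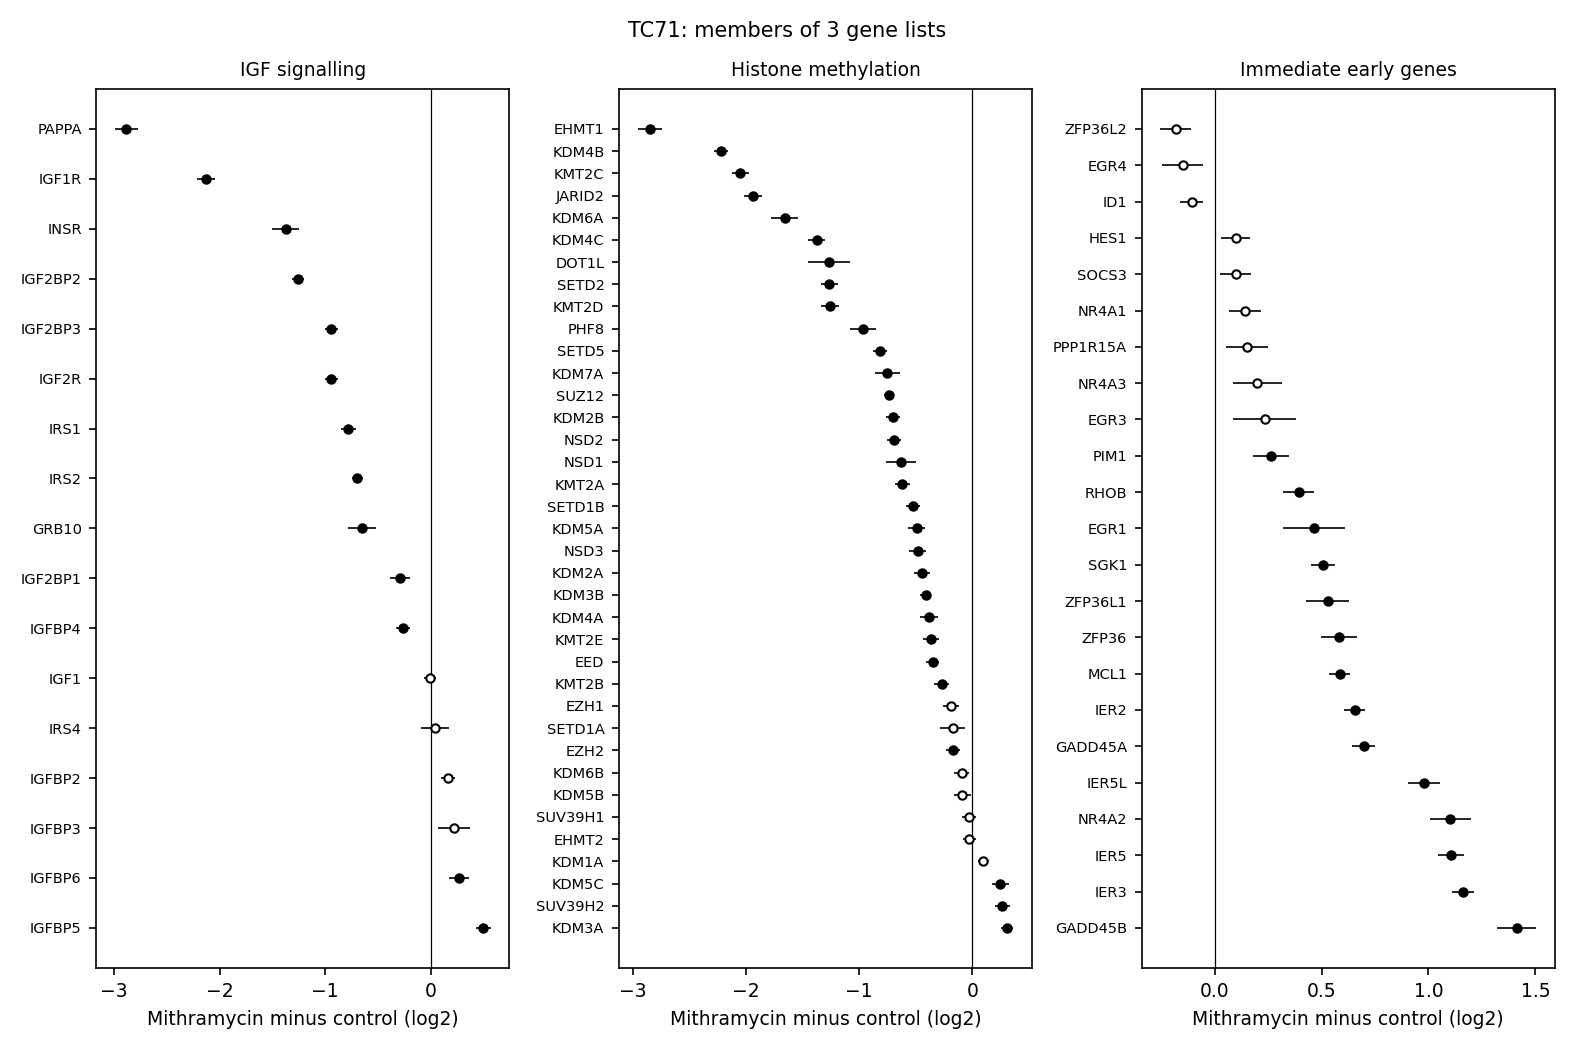
Change in TC71 (log2, horizontal axis; bars are standard errors of the model, n = 3 arrays per group) of the measured members of the IGF, histone methylation and immediate early lists, filled where called and open where not. IGF1R and PAPPA stand furthest to the left among 17 IGF genes, and 14 of 23 immediate early genes are called to the right of zero.

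Genes of damage response, cell death and division moved in mixed directions. Of 23 p53 target genes, 10 were higher and 3 lower, with a median of 0.13. Without the _x_at and _s_at sets 14 were left, 4 higher and 4 lower, and relative to all genes the median ran from -0.07 to 0.23 over the alternatives. PMAIP1, the BH3-only death protein NOXA, read 8.69, 8.70 and 8.70 on control arrays and 9.66, 9.74 and 9.66 with mithramycin, a rise of 0.99 ± 0.05 (adjusted p = 4.80e-08) with no overlap. CDKN1A, the cell cycle inhibitor p21, read 6.39, 6.31 and 6.18 and then 6.79, 6.80 and 6.73. TP53INP1, a p53-induced nuclear protein, rose by 0.80 ± 0.09 (weakest set 0.01), while the death receptor TNFRSF10A fell by 0.58 ± 0.10. In the BCL2 family and caspase inhibitor list, 6 of 21 were lower and 6 higher. The survival protein BCL2 read 6.5, 6.57 and 6.45 and then 5.19, 4.73 and 5.05, and fell by 1.51 ± 0.10 with separate groups and the weakest of 4 sets at 0.12. BIRC6, a caspase inhibitor, fell by 1.37 ± 0.06 and XIAP by 0.70 ± 0.10, whereas the survival protein MCL1 rose by 0.58 ± 0.05 and the BH3-only protein BCL2L11 by 0.55 ± 0.06. BOK, a BAX relative, fell by 0.76 ± 0.08 at its brightest set and stood at 0.08 once _x_at and _s_at sets were left out.

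Of 23 homologous recombination and Fanconi anaemia genes, 13 were lower and 0 higher (0 higher at an unadjusted p under 0.05; 6 lower and 0 higher with hybridization centring, 7 and 1 of 19 without the _x_at and _s_at sets), with a median of -0.28. The helicase BLM read 7.35, 7.36 and 7.42 and then 6.45, 6.47 and 6.48. BRCA1, which organizes repair at broken ends, read 8.18, 8.09 and 8.02 and then 7.60, 7.38 and 7.28, and fell by 0.68 ± 0.09, and its partner helicase BRIP1 fell by 0.86 ± 0.05. All treated arrays of these genes lay below the controls. FANCC fell by 0.97 ± 0.11, a call lost without the _x_at and _s_at sets (-0.08). Of 30 G2/M and mitosis genes 10 were lower and 3 higher (4 and 3 with hybridization centring), among them the mitotic kinase AURKA, which fell by 0.38 ± 0.05, the spindle protein TPX2, which fell by 0.43 ± 0.05, and NEK2, a centrosome kinase that rose by 0.47 ± 0.06. Of 34 G1/S and replication genes 9 were lower and 5 higher, a balance that turned to 3 lower and 5 higher with hybridization centring and stood at 9 and 9 with the mean of probe sets. E2F3, the S-phase factor, fell by 0.77 ± 0.07. RB1, which restrains E2F factors, was called at -0.46 ± 0.13, a call that ended without mithramycin replicate 1 (adjusted p = 0.0538) and without control replicate 2 (adjusted p = 0.0514). In the MYC network 7 of 12 were lower and 1 higher (2 and 2 with hybridization centring, 3 and 2 with the mean of probe sets, 3 and 0 of 9 without the _x_at and _s_at sets). MYC read 11.25, 11.37 and 11.43 and then 10.79, 10.72 and 10.68, and MGA, a repressor of MYC targets, fell by 1.05 ± 0.06.

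Genes that make and process RNA moved in both directions, beside 19.4% higher and 16.1% lower among all genes. P-TEFb, the kinase CDK9 with a cyclin T, releases paused RNA polymerase, and HEXIM1 holds it inactive. Of 30 elongation genes 12 were higher and 10 lower, with a median of 0.04, a balance that turned to 9 higher and 10 lower with housekeeping centring, to 8 and 9 with the actin covariate, and to 8 and 9 of 24 without the _x_at and _s_at sets. HEXIM1 read 9.28, 9.27 and 9.10 on control arrays and 9.82, 9.87 and 9.87 with mithramycin, a rise of 0.64 ± 0.07. CCNT1 rose by 0.48 ± 0.06 and CDK9 by 0.40 ± 0.07, while the other cyclin, CCNT2, fell by 0.45 ± 0.10. Scaffold and partner proteins of the super elongation complex fell, with MLLT1 at -1.07 ± 0.06, MLLT3 at -0.97 ± 0.09 and AFF1 at -0.83 ± 0.06, as did the kinase CDK12, by 0.69 ± 0.07. The weakest sets of MLLT1 and AFF1 stood at 0.08 and 0.04. Of 21 genes of CLK kinases and SR splicing factors, 9 were higher and 4 lower, which turned to 3 higher and 4 lower of the 15 left without the _x_at and _s_at sets. SRSF6 rose by 0.53 ± 0.06 and CLK1 by 0.43 ± 0.07, while SRSF3 fell by 0.49 ± 0.05 and the kinase SRPK2 by 1.04 ± 0.06.

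Stress and metabolic lists had calls in both directions, several of them near the shares of all genes (16.1% lower and 19.4% higher). Of 26 unfolded protein and integrated stress response genes, 10 were lower and 2 higher (15 and 1 with housekeeping centring, 5 and 3 with hybridization centring). The ER chaperone HSPA5 read 11.27, 11.33 and 11.33 and then 10.75, 10.62 and 10.67, and fell by 0.63 ± 0.07, and XBP1, a factor of the unfolded protein response, fell by 0.43 ± 0.05. ERN1, the sensor IRE1, fell by 1.10 ± 0.08 at its brightest set, with another of its 3 sets at 0.68 and a call lost with their mean (-0.09). In hypoxia and glycolysis 7 of 28 were lower and 7 higher (3 and 6 with hybridization centring, and the same with the actin covariate; 4 and 8 with the mean of probe sets). PFKFB3, which makes the activator of glycolysis, read 8.60, 8.48 and 8.52 and then 6.91, 6.77 and 6.87, and hexokinase HK2 fell by 0.75 ± 0.08, with 3 sets from -0.76 to -0.72. The vasodilator peptide gene ADM rose by 0.61 ± 0.09. Of 14 polyamine genes 4 were lower and 4 higher (2 and 6 with hybridization centring, 2 and 5 with the mean of probe sets). Beside the rise of SAT1, the synthetic enzyme AMD1 fell by 0.52 ± 0.07 and ODC1, the first enzyme of synthesis, rose by 0.20 ± 0.05. Of 21 cholesterol and fatty acid genes 5 were lower and 3 higher (8 and 2 with housekeeping centring, 3 and 3 with hybridization centring, 4 and 4 with the mean of probe sets), with the elongase ELOVL6 at -0.57 ± 0.08. Of 24 MAPK feedback and ETS genes 4 were lower and 4 higher, near the shares of all genes (7 and 3 with housekeeping centring, 8 and 4 with the TC71 arrays alone), with the ERK inhibitor SPRED2 at -1.44 ± 0.10 (weakest set 0.08).

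Among further lists, 7 of 15 canonical histone genes were higher and 1 lower, with a median of 0.23. Of 28 interferon-stimulated genes 14 were higher and 1 lower (19.4% and 16.1% of all genes), with a median of 0.24. Without the _x_at and _s_at sets 2 of 9 histone genes were higher and 1 lower, and relative to all genes the histone median ran from -0.05 to 0.24 over the alternatives. IRF7, an interferon regulatory factor, rose by 0.83 ± 0.13 and TAP1, the peptide transporter of antigen presentation, by 0.50 ± 0.07. H2BC5 read 7.89, 7.84 and 7.81 and then 8.40, 8.57 and 8.45, a rise of 0.63 ± 0.08. Of 18 aldehyde dehydrogenase genes 6 were higher and 0 lower (0 lower at an unadjusted p under 0.05), against 3 higher with housekeeping and 10 with hybridization centring. ALDH8A1 read 2.35, 2.47 and 2.67 and then 5.47, 5.14 and 5.48, starting below the array medians, and ALDH2 rose by 0.38 ± 0.06. Of 22 granule and neuropeptide genes 6 were higher and 1 lower (3 and 1 with the actin covariate), led by the granule chaperone SCG5, which read 5.41, 5.46 and 5.57 and then 7.37, 7.18 and 7.20. Oxidative phosphorylation subunits were higher in 8 of 26 and lower in 0 (0 lower at an unadjusted p under 0.05), but 0 were called either way with housekeeping centring, and 5 were higher with hybridization centring, with repeated quantile normalization and with the actin covariate. None of 28 cytosolic ribosomal protein genes was called by limma (0 at an unadjusted p under 0.05), and their changes ran from -0.05 to 0.09. With the mean of probe sets 4 of them were higher, as were 4 of the 20 left without the _x_at and _s_at sets. Of the 12 housekeeping genes 3 were lower and 4 higher (1 and 2 with the actin covariate, 0 and 7 with the mean of probe sets).

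In TC32 under the same treatment, 3831 genes (19.4%) were lower and 5060 (25.6%) higher. Of the 7018 genes called in TC71, 5256 were also called in TC32, of which 5093 had the same direction and 163 the opposite. The difference of the effects, tested gene by gene as an interaction in limma, was called for 1975 genes (9.99%). The TC71 effect was lower in 736 (3.72%) and higher in 1239 (6.27%). All 163 genes with opposite directions were among the 1975, which their choice by 2 called effects of opposite sign largely fixed. Most large TC71 changes had a counterpart: 444 of the 492 genes that fell 2-fold or more were called lower in TC32, and 78 of the 90 that rose as much were called higher.

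Called differences were mixed in some lists: the TC71 effect was lower for 3 and higher for 2 of the 17 IGF genes. It was lower for 3 and higher for 4 of the 29 focal adhesion genes. Other lists ran mostly 1 way, beside 3.72% lower and 6.27% higher among all genes. The TC71 effect was lower for 1 and higher for 10 of 26 unfolded protein and integrated stress response genes. The counts were 0 and 8 of 30 G2/M and mitosis genes, and 0 and 8 of 26 fusion-repressed and mesenchymal genes. Single genes that fell more deeply in TC71 included IGF1R, which changed by -2.13 in TC71 and -1.08 in TC32 (difference -1.05 ± 0.12, adjusted p = 1.42e-04), from control means of 8.42 and 8.48. TNS1 changed by -3.10 in TC71 and -1.58 in TC32 (difference -1.52), and SH3PXD2A, an invadopodium scaffold, by -1.94 and -0.59 (difference -1.35). INPP5A, an inositol phosphatase, fell by 1.35 in TC71 and stood at -0.14 in TC32 (difference -1.21). CCND1 changed by -0.95 and -0.23 (difference -0.72 ± 0.08). Of the 15 deepest falls 12 were called lower in TC32 as well, and 3 were not: ROBO2 (-0.30), CUX2 (-0.03) and CNTN4 (-0.05), whose differences of -1.54, -1.80 and -1.62 were called. TET1 fell less in TC71 than in TC32 (-1.72 and -3.01, difference 1.29). Among the 15 highest rises 14 were called higher in TC32, and CCN1 was not (-0.03, difference 1.18).

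Several genes, among them the immediate early gene FOS and the matricellular gene CCN2, moved in opposite directions in the lines. The immediate early list as a whole did not: in TC32 10 of its 23 genes were higher and 4 lower (25.6% and 19.4% of all genes). For 10 of the 23 immediate early genes the TC71 effect was called higher than that of TC32, and for 1 lower (6.27% and 3.72% of all genes). FOS rose by 0.77 in TC71 and fell by 1.0 in TC32 (difference 1.77 ± 0.11, adjusted p = 4.61e-06), and CCN2 rose by 1.73 and fell by 0.78 (difference 2.51 ± 0.10, adjusted p = 4.55e-07). The control levels of these genes differed between the lines: FOS averaged 4.61 in TC71 and 8.51 in TC32 controls, and CCN2 averaged 4.81 and 11.04. KLF4 (difference 1.16) and ADM (1.15) also rose in TC71 and fell in TC32, and their control means were 3.31 and 5.34 in TC71 against 6.54 and 9.49 in TC32. The KLF4 rise was not called with the actin covariate (0.42), and it started below the array medians, so its size is rough. The Notch target HEY1 rose by 0.64 and fell by 0.18 (difference 0.81 ± 0.08) and the BMP pseudoreceptor BAMBI rose by 0.47 and fell by 0.45 (difference 0.92 ± 0.08), from control means of 9.62 and 7.85 in TC71. The part of the starting level in these differences was not tested. POU3F2, a neural POU factor, rose by 0.26 in TC71, a call lost with the actin covariate (0.18) and with the mean of probe sets (0.11), and fell by 1.24 in TC32. Falls weaker in TC71 than in TC32 included DSEL, a dermatan sulphate epimerase-like gene (-0.49 and -2.10), the ephrin EFNA4 (-0.66 and -1.94) and TRIM69 (-0.26 and -1.63), whose TC71 value turned to 0.21 when its probe sets were averaged. Rises weaker in TC71 included SLFN5 (0.88 and 2.25), ZNF211 (0.83 and 2.07) and NUDT17 (0.43 and 1.51).

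**Figure D5:**
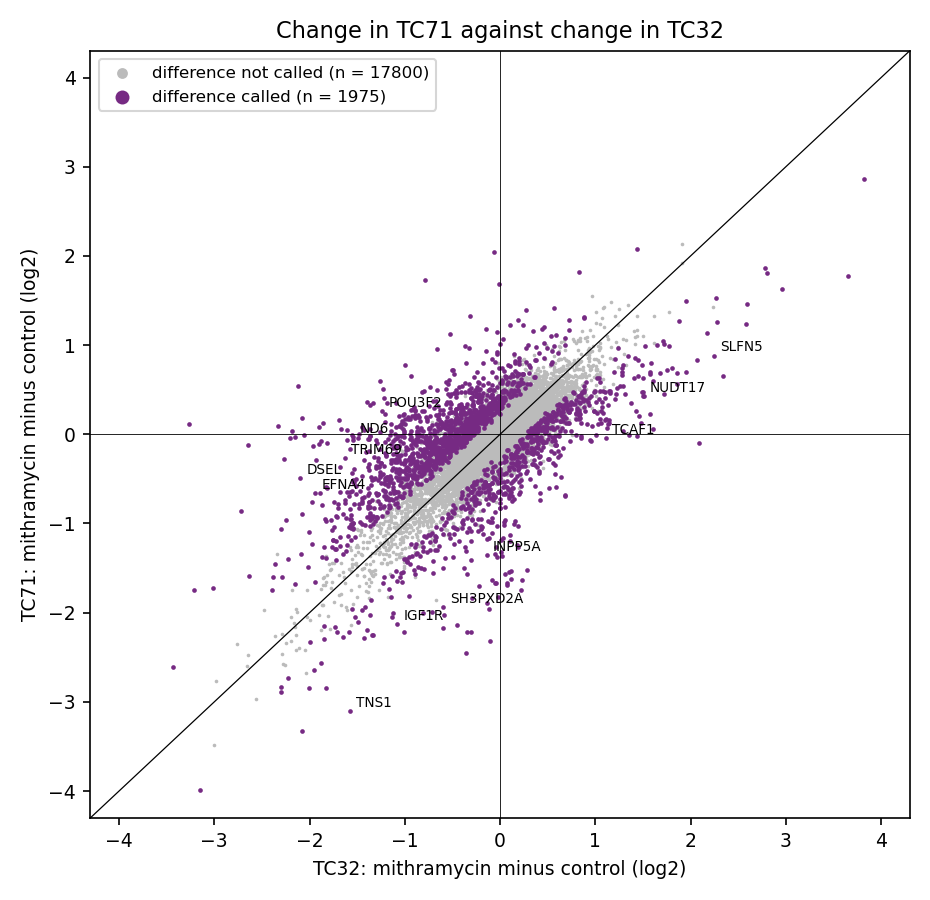
Change with mithramycin in TC71 (log2, vertical axis) against the change in TC32 (log2, horizontal axis), 1 point per gene, purple for the 1975 genes whose difference between the lines was called, with the line of equal change. Most points lie along the line, and IGF1R and TNS1 lie below it.

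How well a gene's call represents its transcripts depends on its probe sets. Of 2425 lower genes with at least 2 probe sets, 519 (21.4%) had every set called lower and 242 (9.98%) had a set called in the opposite direction. Of 1996 higher genes, 504 (25.2%) had every set called higher and 112 (5.61%) had an opposite one. Among genes that fell 2-fold or more, every set was called in 110 of 407, and among those that rose as much in 27 of 45.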

How the data were processed

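RNA from TC71 and TC32 cells was hybridized to 12 one-colour oligonucleotide arrays, 1 per sample. The authors deposited log2 values per probe set that were normalized by RMA (robust multi-array average), per the submitters' processing notes. RMA equalizes the distribution of probe values between arrays, which largely removes any shift that most genes share. Its version and settings were not given in the sources used here. Detection calls, scan dates and batches were not used here. Of 54675 probe sets, 41091 had 1 gene symbol, 1801 several, 11721 none and 62 were controls. Symbols were updated through a RefSeq table for GRCh38.p14, which matched 41037 sets. The brightest set stood for each of 19775 genes, and 10523 genes had more than 1 set. No table column of another sample was found (0).

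A linear model of 4 group means was fitted to all 12 arrays in limma 3.58.1 (R 4.3.3) with its empirical Bayes step, and the code was tested on simulated data. The contrasts were mithramycin minus control in TC71, the same in TC32, and the difference of both. The adjusted p-values come from limma, are two-sided and use Benjamini-Hochberg over all genes, and a gene was called under 0.05. Genes named are the 15 lowest and 15 highest with group means of at least 5, groups that do not overlap and at least 2 probe sets all called alike, the 5 members of each list with the largest called change, a fixed set (such as EWSR1, FLI1, CD99, SP1, MYC, CDKN1A, VEGFA, BCL2, NKX2-2, CCND1, IGF1R and EZH2), and 8 at each end of the line difference. A few further list members were named after their values were seen. The lists and named genes were chosen with earlier results of these data known. Array-wide measures were compared with an exact permutation test. Some genes of these lists are not analysed here.

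Alternatives were TC71 arrays alone, a replicate block, leaving out each TC71 array, the mean of probe sets, no _x_at and _s_at sets, a mean signal of at least 6, centring on housekeeping genes or hybridization controls, repeated quantile normalization, the actin measure as a covariate, and trended, robust moderation.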

Additional observations from a re-analysis of the deposited data

Results flagged for a closer look

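For 40 genes whose difference is given the effect of mithramycin in TC71 differed from that in TC32 in limma's test of the difference itself. The values in brackets are the TC71 effect minus the TC32 effect, in log2.

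Falls in both lines that were deeper in TC71 were those of TNS1 (-1.52), SH3PXD2A (-1.35), IGF1R (-1.05), PSD3 (-0.88), ASAP1 (-0.79), CCND1 (-0.72), SYT1 (-0.69), SSBP3 (-0.56) and NFIC (-0.51). Genes that fell in TC71 and were not called lower in TC32 were CUX2 (-1.80), CNTN4 (-1.62), ROBO2 (-1.54) and INPP5A (-1.21). Genes with weaker rises in TC71 than in TC32, or with a rise called in TC32 and no call in TC71, were SLFN5 (-1.37), ZNF211 (-1.23), TCAF1 (-1.15), NUDT17 (-1.08), IGIP (-0.67), RSRP1 (-0.61), TOB1 (-0.45) and CDKN1A (-0.40). A positive difference with a change above zero in TC71 was found for ATXN1-AS1 (0.43), VAMP1 (0.43), NKX2-2 (0.81), CCN1 (1.18), ZNF112 (1.28), C6orf141 (1.35), PLPP6 (1.43) and POU3F2 (1.50). A positive difference with a change below zero in TC71 was found for EFNA4 (1.29), TET1 (1.29), TRIM69 (1.36), ND6 (1.51) and DSEL (1.61). Rises called in TC71 beside falls called in TC32 included those of CCN2 (2.51), FOS (1.77), KLF4 (1.16), ADM (1.15), BAMBI (0.92) and HEY1 (0.81).

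Outside the named genes, the 11721 probe sets with no gene name here also responded, with 915 called lower and 1227 higher in TC71 by limma over those sets. At least 2-fold lower were 149 of them and at least 2-fold higher 116. They were left out of every comparison of genes.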

How the results depend on the processing

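The counts in TC71 kept within 1.5 times of those reported in most alternatives. Leaving out 1 TC71 array gave 2973 to 3204 higher and 2823 to 2979 lower genes, 92 to 97 at least 2-fold higher, 470 to 516 at least 2-fold lower and 1479 to 1558 with a called line difference. Outside that range, centring on housekeeping genes gave 2228 higher genes and the actin covariate 2158, while centring on hybridization controls gave 1929 lower genes. With the mean of probe sets 212 genes were at least 2-fold lower. With only genes of a mean of at least 6, 316 fell 2-fold or more and 40 rose as much, as fewer genes were tested. The line difference was called for 3080 genes with hybridization centring and 1204 with the actin covariate; the causes of these shifts were not tested.

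The replicate numbers did not pair the arrays: deviations of same-numbered arrays correlated at -0.07, -0.02 and -0.01. With the replicate block 3689 genes were higher, 3111 lower and 1572 had a called line difference, against 3828, 3190 and 1975 without it.

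Of 206 named genes called in TC71, 190 kept the call in all 6 fits that left out 1 TC71 array. Calls were lost for 22 with the actin covariate, 14 with housekeeping centring, 13 with hybridization centring, 17 with the mean of probe sets and 15 without the _x_at and _s_at sets. Directions reversed for TRIM69 with the mean of probe sets (0.21) and, without the _x_at and _s_at sets, for AQP4 (-0.20), BOK (0.083), BTG1 (-0.062), KLF13 (0.072), LGR4 (0.20), LUM (-0.080), PAOX (0.029) and SMAD6 (0.14). No detection calls were used here, so signals below the array medians give only rough sizes.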

Other observations

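Long non-coding RNA genes were a class examined after its values were seen, and no test was made of its difference from other genes. Of 162 with a mean of at least 6, 81 were higher and 16 (9.88%) lower in TC71, beside 26.8% higher and 28.3% lower among 8142 protein-coding genes above that mean. Between 6 and 8 the shares were 51.5% higher and 8.82% lower of 136, beside 23.7% and 33.8% of 4164 protein-coding genes, and at 8 and over they were 42.3% and 15.4% of 26, beside 30.1% and 22.7% of 3978. The counts were 71 and 15 without control replicate 1, 60 and 12 with the actin covariate, 62 and 22 with housekeeping centring, and 76 and 38 in TC32. MIR181A2HG, a host transcript of microRNAs, read 5.30, 5.42 and 5.54 on control arrays and 6.94, 6.72 and 6.71 with mithramycin. LINC01003 read 7.35, 7.22 and 7.26 and then 8.34, 8.37 and 8.35, a rise of 1.08 ± 0.08. The groups did not overlap in either. The divergent transcripts RNF139-DT and PAXIP1-DT rose by 1.06 ± 0.09 and 1.04 ± 0.08. The snoRNA host gene SNHG17 fell by 0.88 ± 0.09. MALAT1, an abundant nuclear RNA, was at 0.04 ± 0.07 (limma adjusted p = 0.743) at its brightest set, and its 12 sets ran from -0.79 to 0.35.

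Among genes named as antisense RNAs with a mean of at least 6, 36 of 59 were higher (27 higher and 3 lower with housekeeping centring). Antisense transcripts and their named partners could be set side by side for 715 pairs of any signal. Where the antisense gene was higher, the partner was lower in 40 pairs (27.0%), higher in 27 (18.2%) and not called in 81, close to the 24.8% and 15.7% of partners over all pairs. ATXN1-AS1, among the highest rises, stood at 1.31 ± 0.08 beside ATXN1, a transcriptional corepressor whose brightest probe set stood at -3.49 ± 0.15, with its 5 sets between -3.49 and 0.09. ZNF genes, a large family of zinc finger repressors, were higher in 70 (37.0%) and lower in 41 (21.7%) of 189 with a mean of at least 6, beside the protein-coding shares above. The counts were 45 and 24 with the actin covariate, 60 and 49 with housekeeping centring, and 62 higher and 69 lower in TC32.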
